A study of Danio rerio with 16 samples.

Results

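The 13 miRNAs described here are those that the array names dre-miR-141, miR-200, miR-203, miR-216, miR-217, miR-375 or miR-429, with any letter or arm suffix, out of 248 zebrafish miRNAs with probes. They are dre-miR-216a, miR-216b and miR-217 of the exocrine pancreas, dre-miR-375 of the endocrine pancreas, and the epithelial dre-miR-141, miR-200a, miR-200b, miR-200c, miR-203a, miR-203b-3p, miR-203b-5p, miR-429a and miR-429b. They were chosen by name, with earlier results of these data known, and each had 60 spots per array.

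Livers of adult female zebrafish were profiled on 16 one-colour arrays after 7 days, 4 arrays for each of 4 groups. The Fed group (labelled FED) was fed with no fluoxetine in the water, and the Fasted group (FAST) was kept without food and without the drug. The Fed/FLX group (FED/FLX) was fed and the Fasted/FLX group (FAST/FLX) fasted, both in water with 540 ng/L fluoxetine (FLX), a selective serotonin reuptake inhibitor. Each sample pooled 2 livers, and the fish of a group shared 1 tank, so that tank and group cannot be told apart and the p-values measure only the spread between these pools. In bulk liver tissue fewer cells of a type and less RNA per cell cannot be told apart.

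MicroRNAs are short RNAs that pair with transcripts and repress them, and many are restricted to a few cell types. In zebrafish the pancreas lies against the liver and the gut, and in vertebrates the miR-216 and miR-217 genes form a cluster that is expressed in the acinar cells which secrete digestive enzymes, whereas miR-375 belongs to the islets and is needed for their formation in zebrafish. The miR-200 family (miR-141, miR-200a, miR-200b, miR-200c and miR-429) holds cells in an epithelial state, in mammals by repressing the ZEB transcription factors, and miR-203 is a miRNA of skin and other stratified epithelia that in the mouse represses p63.

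The exocrine pancreas miRNAs and a part of the miR-200 family were detected in these livers, whereas the islet miRNA was not. Detection meant that 50% or more of the spots left after removal of outliers were well above background. By this rule dre-miR-200a was detected on 16 arrays, miR-200b and miR-216a on 15, miR-216b on 13, miR-429a on 12 and miR-217 on 11. These 6 of 13 members, detected on at least 8 arrays, are the ones whose values are given array by array. dre-miR-203b-3p was detected on 3 arrays and miR-200c on 1. dre-miR-141, miR-203a, miR-203b-5p, miR-375 and miR-429b were detected on none, as were 140 of the 248 miRNAs. In all, 86 of 208 values of the 13 members were of detected miRNAs.

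**Figure D1:**
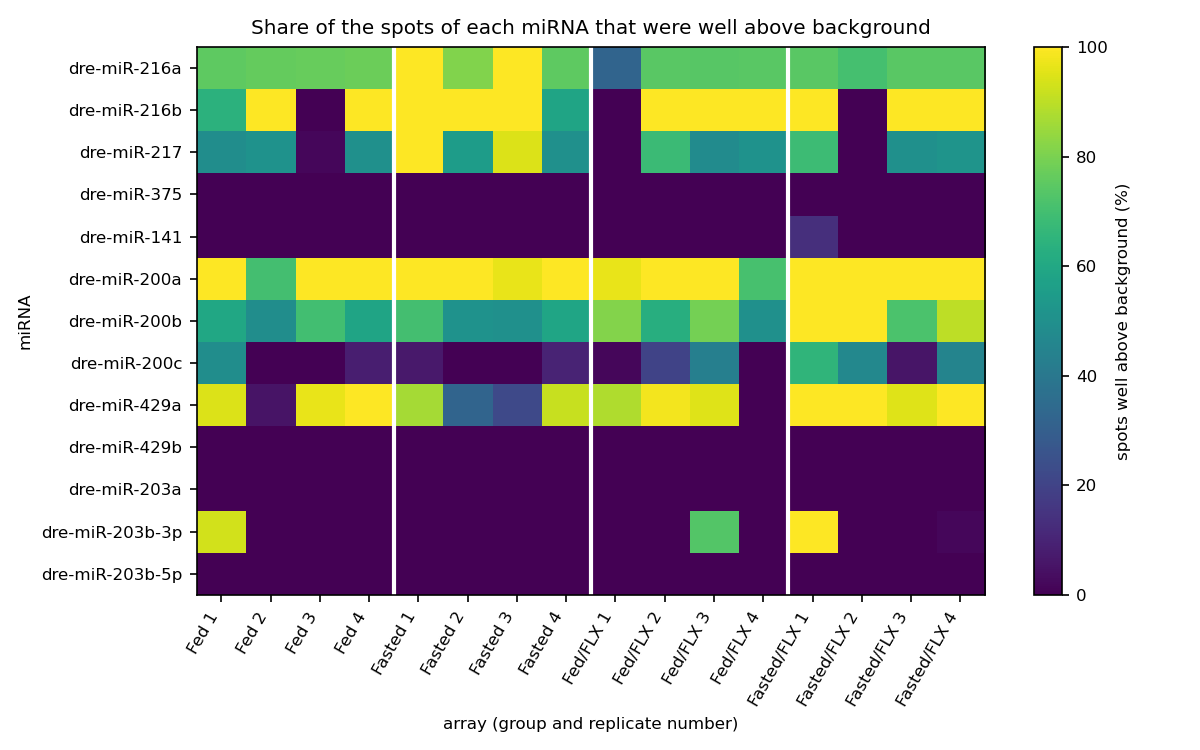
Share of each miRNA's spots that were well above background (colour, in %, from 0 to 100) for the 13 miRNAs (vertical axis) on the 16 arrays (horizontal axis, by group and replicate number, with white lines between groups). dre-miR-200a is above 50% on all 16 arrays and dre-miR-375, miR-203a, miR-203b-5p and miR-429b are below 50% on every one, while dre-miR-216b and miR-217 are near 0% on Fed 3, Fed/FLX 1 and Fasted/FLX 2.

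Some of the miR-200 genes are neighbours in the genome. In the RefSeq gene order for the GRCz12tu assembly, mir200a and mir200b stand next to each other, and mir429b, mir141 and mir200c follow one another with 0 genes between them. The miRNAs of the first pair were detected on 16 and 15 arrays, and those of the second run on 0, 0 and 1. The genes of miR-216a, miR-216b, miR-375 and miR-429a were not matched in that table. The probes differ in sequence, so these counts do not compare amounts of RNA.

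Any 2 arrays correlated at 0.962 to 0.994, but the number of miRNAs detected on an array, out of all 248, differed between groups. It was 64 to 77 in Fed, 74 to 78 in Fasted, 65 to 87 in Fed/FLX and 83 to 92 in Fasted/FLX, so that the Fasted/FLX arrays lay above all Fed and Fasted arrays. The share of spots well above background was 26.3% to 29.3% in Fed, 28.45% to 33.3% in Fasted, 25.8% to 33.5% in Fed/FLX and 32.1% to 35.4% in Fasted/FLX, where Fasted/FLX lay above Fed. The part of this in the results on the 13 miRNAs was not tested. The liver miRNA dre-miR-122 was detected on every array, while the marker miRNAs of muscle, nerve, and egg and early embryo were detected on none. The arrays came on 2 slides of 8, and by the labels of the scans each slide carried 2 arrays per group. The FLX arrays occupied slide columns 2 and 4, so that column and FLX cannot be told apart. Fed 2 and Fed/FLX 4 were the dimmest arrays, with 26.3% and 25.8% of spots well above background.

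Values are RMA values on the log2 scale, which sum up the spots of a miRNA after background modelling and quantile normalization of the 16 arrays. The dimmest miRNA detected on an array stood between 3.40 and 4.45 on this scale. Replicates are named by the number in their label.

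Among the exocrine pancreas miRNAs, dre-miR-217 varied most between arrays of the same group. Its RMA values were 4.32, 4.93, 3.55 and 4.64 on Fed arrays 1 to 4 and 5.57, 4.87, 5.28 and 4.24 on Fasted arrays. On Fed/FLX arrays they were 2.43, 5.04, 4.35 and 5.01, and on Fasted/FLX arrays 5.11, 3.06, 4.84 and 4.82. Every group overlapped every other, and the lowest arrays were Fed/FLX 1, Fasted/FLX 2 and Fed 3, from 3 different groups. Group means were 4.36 ± 0.60 (Fed), 4.99 ± 0.58 (Fasted), 4.21 ± 1.23 (Fed/FLX) and 4.46 ± 0.94 (Fasted/FLX), with SD and n = 4 for each. The RMA values of dre-miR-217 differed from Fed by 0.63 (Fasted), -0.15 (Fed/FLX) and 0.10 (Fasted/FLX) (limma adjusted p = 0.695, 0.936 and 0.958). The 95% intervals were -0.58 to 1.84, -1.36 to 1.06 and -1.12 to 1.31 and each reached past 2-fold. Single arrays moved these differences and turned the sign of those of Fed/FLX and Fasted/FLX from Fed, while that of Fasted from Fed kept its sign. Without Fed/FLX 1 the difference of Fed/FLX from Fed was 0.43, and without Fed 3 that of Fasted from Fed was 0.38 and that of Fasted/FLX from Fed -0.17. Without Fasted/FLX 2 the last was 0.56. Of the 2 probes for dre-miR-217, 1 was above background on 2 arrays and the other on 13. Its share of spots above background could thus lie close to the limit of 50%. It was 49.15% on Fed 1, which counted as not detected, and 50% on Fed 4, which counted as detected.

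dre-miR-216b followed the same arrays as dre-miR-217. Its RMA values were 4.70, 5.52, 3.96 and 5.09 in Fed and 5.82, 5.26, 5.67 and 4.63 in Fasted. In Fed/FLX they were 3.43, 5.53, 4.96 and 5.62, and in Fasted/FLX 5.43, 3.45, 5.26 and 5.09. The 3 lowest arrays were again Fed/FLX 1, Fasted/FLX 2 and Fed 3, and no group stood apart from another. Group means were 4.82 ± 0.66 (Fed), 5.34 ± 0.53 (Fasted), 4.89 ± 1.01 (Fed/FLX) and 4.81 ± 0.92 (Fasted/FLX). Set against Fed, the difference was 0.53 for Fasted, 0.07 for Fed/FLX and -0.01 for Fasted/FLX, with limma adjusted p of 0.702, 0.968 and 0.993. The 95% intervals for dre-miR-216b were -0.59 to 1.64, -1.05 to 1.18 and -1.12 to 1.105. Leaving out Fed 3 gave 0.24, -0.22 and -0.30 in this order. Without Fed/FLX 1 the second was 0.56, and without Fasted/FLX 2 the third was 0.43.

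The third exocrine pancreas miRNA, dre-miR-216a, had a narrower spread and lower means in both FLX groups. It stood at 5.71, 6.31, 5.53 and 5.73 in Fed and at 6.43, 5.81, 6.34 and 5.46 in Fasted. With FLX it stood at 4.58, 5.74, 5.19 and 5.83 in Fed/FLX and at 5.29, 4.61, 5.32 and 5.59 in Fasted/FLX. The ranges of Fasted (5.46 to 6.43) and Fasted/FLX (4.61 to 5.59) overlapped by 1 array on each side. Means were 5.82 ± 0.34 (Fed), 6.01 ± 0.45 (Fasted), 5.33 ± 0.58 (Fed/FLX) and 5.20 ± 0.42 (Fasted/FLX). The largest difference of any of the 13 miRNAs in any pair of groups was that of dre-miR-216a between Fasted/FLX and Fasted, -0.80 ± 0.30 (SE), with a 95% interval of -1.44 to -0.17. It did not pass the test over all miRNAs (limma adjusted p = 0.170), and it was -1.16 on slide 1 and -0.44 on slide 2. Against Fed, dre-miR-216a differed by -0.49 in Fed/FLX (adjusted p = 0.394), by -0.62 in Fasted/FLX (adjusted p = 0.322) and by 0.19 in Fasted (adjusted p = 0.831). Without Fed/FLX 1 the first was -0.24, and over all arrays left out in turn the last was 0.05 to 0.36.

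The 4 probe sequences for dre-miR-216a did not give the same size of difference. Each has 15 spots, and they were above background on 2, 15, 16 and 15 arrays. For the last 3, the difference of Fasted/FLX from Fasted was -0.95, -0.69 and -0.48, and that of Fed/FLX from Fed was -0.64, -0.48 and -0.13. No difference is given for the first, which was mostly below background. By contrast, the pair of probes for dre-miR-216b gave -0.57 and -0.50 for Fasted/FLX against Fasted and 0.04 and 0.07 for Fed/FLX against Fed.

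**Figure D2:**
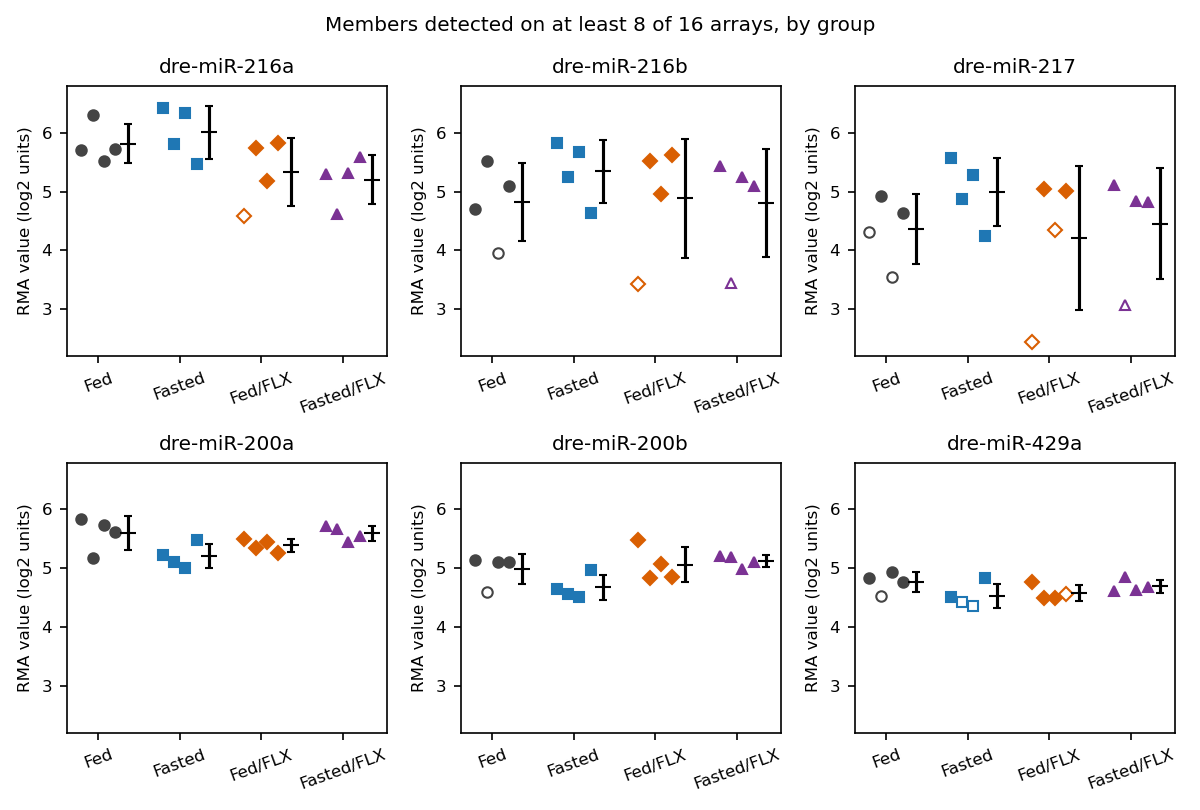
RMA values (log2 units, vertical axis) of the 6 miRNAs detected on at least 8 of 16 arrays, by group (horizontal axis). Each point is 1 array, from replicate 1 at the left to 4 at the right, filled where the miRNA was detected and open where it was not, and the bar is the mean ± SD of 4 arrays. The exocrine miRNAs in the upper row spread widely within groups, dre-miR-217 from 2.43 to 5.57, and those of the miR-200 family in the lower row narrowly, dre-miR-200a from 5.001 to 5.84.

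dre-miR-200a was the one member detected on every array and had the epithelial difference with the lowest p. Its values were 5.84, 5.18, 5.74 and 5.62 in Fed and 5.23, 5.10, 5.001 and 5.48 in Fasted. In Fed/FLX they were 5.50, 5.34, 5.45 and 5.26, and in Fasted/FLX 5.72, 5.66, 5.44 and 5.55. Fed array 2 lay within the range of the Fasted arrays, and the other Fed arrays lay above all of them. Fed and Fasted arrays of the same replicate number share a slide and a slide column and were compared after the values were seen. Fasted was below Fed in 4 of 4 such pairs, by log2 differences of -0.61, -0.08, -0.73 and -0.14. The share of all 248 miRNAs with 4 of 4 pairs of 1 sign was not counted, so this count is no result about dre-miR-200a. The group means were 5.59 ± 0.29 (Fed), 5.20 ± 0.21 (Fasted), 5.39 ± 0.11 (Fed/FLX) and 5.59 ± 0.12 (Fasted/FLX). The Fasted mean was lower than that of Fed by a log2 difference of -0.39 ± 0.13 (SE; 95% interval -0.67 to -0.10; limma adjusted p = 0.248) and was -0.34 on slide 1 and -0.44 on slide 2. Without Fed array 2, one of the dimmest arrays, the difference was -0.53 and passed the adjusted threshold (adjusted p = 0.0451) while staying under 2-fold.

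The difference between Fasted/FLX and Fasted in dre-miR-200a was of the opposite sign, 0.39 ± 0.13 (adjusted p = 0.132). Its 2 probes, above background on 14 and 16 arrays, gave 0.19 and 0.50 for this difference. For Fasted against Fed they gave -0.26 and -0.45. The interaction of FLX and fasting, which is the difference of Fasted/FLX from Fed/FLX minus that of Fasted from Fed, was 0.59 for dre-miR-200a (95% interval 0.19 to 1.00; limma adjusted p = 0.229). Without Fed array 2 it was 0.73 (adjusted p = 0.0242), and the difference of Fasted/FLX from Fasted stayed at 0.39 with an adjusted p of 0.0411. The call on dre-miR-200a therefore turned on 1 array, and only when no minimum fold was asked for.

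dre-miR-200b, whose gene is the neighbour of mir200a, was the one member with groups that did not overlap. Its values were 5.13, 4.60, 5.10 and 5.11 in Fed and 4.65, 4.56, 4.51 and 4.98 in Fasted. Fed/FLX arrays had 5.48, 4.83, 5.07 and 4.86, and Fasted/FLX arrays 5.20, 5.18, 4.99 and 5.10. The lowest Fasted/FLX array (4.99) was just above the highest Fasted array (4.98), and these 2 groups were the only pair that separated for any of the 13. Such separation of Fasted/FLX from Fasted was found for 12.9% of the 248 miRNAs, against 1 of the 13. Fasted was also below Fed in 4 of 4 pairs of the same number (-0.48, -0.04, -0.59 and -0.14). This was so in 3 of 4 pairs for miR-429a and in 2 of 4 for each of miR-216a, miR-216b and miR-217. The share of all miRNAs was not counted here either, and miR-200a and miR-200b are not independent, as they correlated at r = 0.840. For the pairs of groups with 0 of 13 separated, the share of all miRNAs was 8.47% in Fasted against Fed, 12.1% in Fed/FLX against Fed, 16.5% in Fasted/FLX against Fed, 5.24% in Fasted/FLX against Fed/FLX and 9.68% in Fed/FLX against Fasted. Without FLX the means were 4.99 ± 0.26 (Fed) and 4.67 ± 0.21 (Fasted), and with FLX 5.06 ± 0.30 (Fed/FLX) and 5.12 ± 0.10 (Fasted/FLX). Fasted/FLX differed from Fasted by 0.44 ± 0.15 (SE; limma adjusted p = 0.132), and by 0.44 with an adjusted p of 0.0486 when only these 2 groups were fitted. Against Fed, dre-miR-200b differed by -0.31 for Fasted, 0.07 for Fed/FLX and 0.13 for Fasted/FLX (adjusted p = 0.394, 0.864 and 0.708). Of its 2 probes, 1 was above background on 5 arrays and the other on 16, and the latter gave 0.59 for Fasted/FLX against Fasted.

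dre-miR-429a shares its seed with dre-miR-200b and miR-200c and had the narrowest range of the 6. It stood at 4.83, 4.53, 4.93 and 4.76 in Fed and at 4.51, 4.42, 4.36 and 4.83 in Fasted. In Fed/FLX it stood at 4.77, 4.48, 4.49 and 4.56, and in Fasted/FLX at 4.61, 4.85, 4.63 and 4.68. All groups overlapped. Its means were 4.76 ± 0.17 (Fed), 4.53 ± 0.21 (Fasted), 4.58 ± 0.13 (Fed/FLX) and 4.69 ± 0.11 (Fasted/FLX). The difference of Fasted from Fed was -0.24 (adjusted p = 0.394), that of Fed/FLX -0.19 (adjusted p = 0.392) and that of Fasted/FLX -0.07 (adjusted p = 0.767). The 3 miRNAs of the miR-200 family thus had their lowest mean in the Fasted group, and none of their differences passed the adjusted test.

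**Figure D3:**
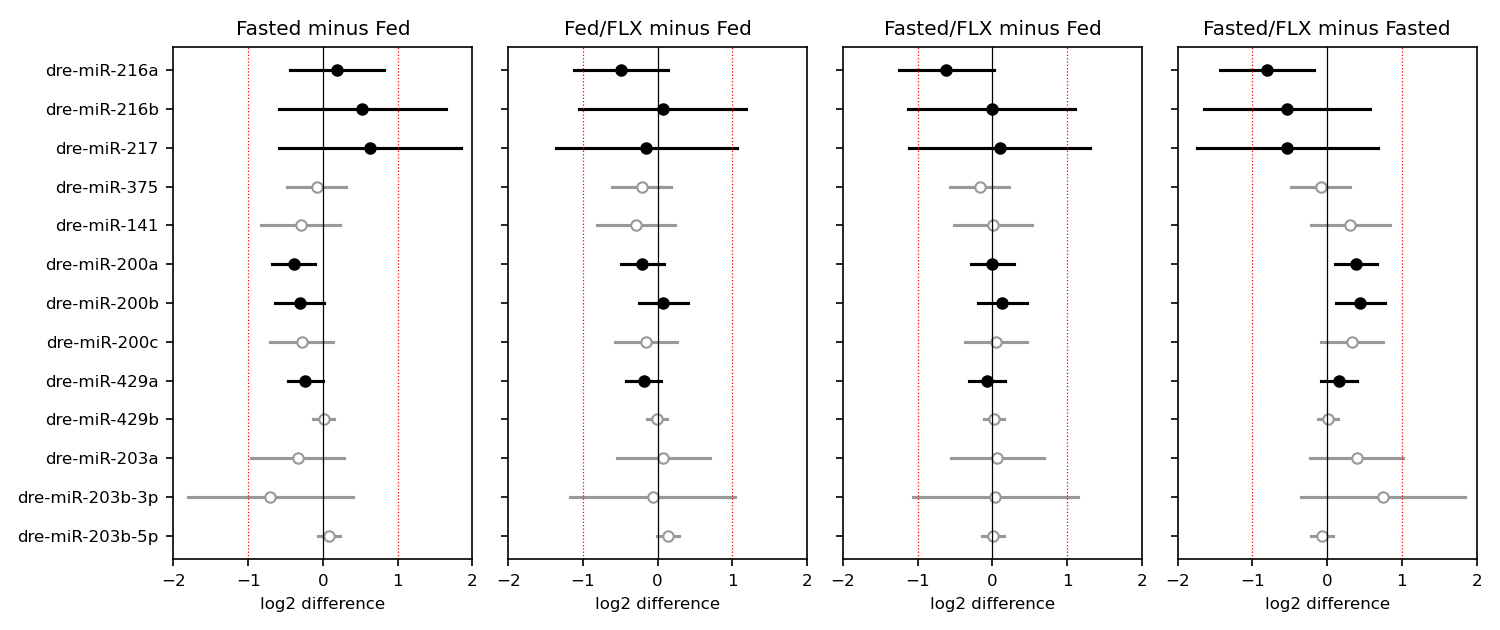
Log2 differences of group means (horizontal axes) with 95% intervals from limma for the 13 miRNAs (vertical axis) in 4 comparisons. Filled points are the 6 miRNAs detected on at least 8 arrays, open grey points the other 7, whose values are mostly of undetected miRNAs, and dotted lines mark 2-fold. No point lies past a dotted line. Among the filled points, the intervals of dre-miR-217 and miR-216b reach past one in all 4 comparisons, and those of miR-216a in all but Fasted minus Fed. Those of dre-miR-200a, miR-200b and miR-429a do not reach past it.

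With a 2-fold minimum and an adjusted p under 0.05 as the call, limma called 0 of the 13 miRNAs between any 2 groups or in the interaction. The same rule called 0% of all 248 miRNAs in Fasted against Fed, 0.403% in Fed/FLX against Fed, 0% in Fasted/FLX against Fed, 0% in Fasted/FLX against Fasted, 0% in Fasted/FLX against Fed/FLX, 0.403% in Fed/FLX against Fasted and 0.806% in the interaction. At an adjusted p under 0.05 with no minimum fold, 0 of 13 were called in each comparison, where 12.9% of all miRNAs were called in Fed/FLX against Fed, 6.45% in Fasted/FLX against Fasted, 4.84% in Fasted/FLX against Fed, 7.26% in Fed/FLX against Fasted, 1.61% in Fasted/FLX against Fed/FLX and in the interaction, and 0% in Fasted against Fed. At an unadjusted limma p under 0.05, 1 of 13 differed in Fasted against Fed (11.7% of all miRNAs), 3 in Fasted/FLX against Fasted (16.9%), 2 in Fed/FLX against Fasted (16.9%), 3 in the interaction (12.9%), and 0 each in Fed/FLX against Fed (23.4%), Fasted/FLX against Fed (16.1%) and Fasted/FLX against Fed/FLX (11.7%). At these background shares 13 miRNAs would give 1.52, 2.2, 2.2, 1.68, 3.04, 2.1 and 1.52, so that the counts of members are no result about them.

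The median log2 difference of the 13 miRNAs was -0.24 in Fasted against Fed, beside -0.00 over all 248. It was -0.15 in Fed/FLX against Fed (0.01 over all), 0.01 in Fasted/FLX against Fed (0.01 over all) and 0.16 in Fasted/FLX against Fasted (-0.00 over all). In Fasted against Fed and in Fasted/FLX against Fasted the median hides opposite signs. For Fasted against Fed the differences of dre-miR-216a, miR-216b and miR-217 were 0.19, 0.53 and 0.63. Those of dre-miR-200a, miR-200b and miR-429a were -0.39, -0.31 and -0.24. For Fasted/FLX against Fasted the 3 exocrine pancreas miRNAs were lower and the miR-200 miRNAs higher in Fasted/FLX. None of these differences passed the adjusted test. The medians also include members that were mostly not detected, so they show no common shift of the 13. All 6 miRNAs had a difference of the same sign on both slides in Fasted against Fed and in Fasted/FLX against Fed/FLX, 4 of 6 in Fasted/FLX against Fasted, 3 of 6 in Fed/FLX against Fed and 1 of 6 in Fasted/FLX against Fed. The share of all 248 miRNAs with the same sign on both slides was not counted, and the 6 are not independent of each other. These counts are therefore no result about them. Comparisons that share a group share its arrays.

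The spread between arrays of 1 group set the exocrine miRNAs apart from most others. Among the 77 miRNAs detected on at least 8 arrays, the within-group SD of dre-miR-217 was the highest (0.877), that of miR-216b was in place 3 (0.805) and that of miR-216a in place 10 (0.455), where the median was 0.198. Those of dre-miR-200b, miR-200a and miR-429a were 0.229, 0.197 and 0.160, in places 31, 40 and 54. This ranking was chosen after the values were seen and has no test. The SDs include arrays on which a miRNA was not detected, among them the lowest arrays of miR-217 and miR-216b. The 95% intervals of the differences between 2 groups had a half-width of up to 1.21 log2 units, that of dre-miR-217.

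Across the 16 arrays the exocrine miRNAs moved together. The RMA values of dre-miR-216b and miR-217 correlated at r = 0.980 and rho = 0.977, both with an adjusted permutation p of 0.00015 over 15 pairs, from an unadjusted p of 1e-05, the smallest that 100000 permutations can give. The relation was the same within slide 1 (r = 0.984), within slide 2 (r = 0.978), within groups (r = 0.992) and without the 2 arrays farthest from the median, Fed/FLX 1 and Fasted/FLX 2 (r = 0.974). dre-miR-216a correlated with miR-216b at r = 0.804 (rho = 0.785, adjusted permutation p = 0.0005 and 0.00141) and with miR-217 at r = 0.811 (rho = 0.723, adjusted permutation p = 0.00045 and 0.00347). Without Fed/FLX 1 and Fasted/FLX 2 these became 0.544 and 0.556, so that they rested in part on those arrays. Within slide 1 they were 0.890 and 0.871, and within slide 2 0.515 and 0.568. Of the 76 other miRNAs detected on at least 8 arrays, miR-216b and miR-216a were the most like dre-miR-217 over the 16 arrays, followed by dre-let-7a (r = 0.624) and the liver miRNA dre-miR-122 (r = 0.601), which were picked after the values were seen.

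The miR-200 miRNAs also moved together, over a smaller range. dre-miR-200a correlated with miR-200b at r = 0.840 (rho = 0.882, adjusted permutation p = 0.0003 and 0.00015) and with miR-429a at r = 0.837 (rho = 0.838, adjusted permutation p = 0.0003 and 0.00065). dre-miR-200b correlated with miR-429a at r = 0.734 (rho = 0.732, adjusted permutation p = 0.0022 and 0.00336). Without the 2 farthest arrays the values were 0.825, 0.776 and 0.591 in this order. On slide 1 they were 0.807, 0.835 and 0.817, and on slide 2 0.937, 0.866 and 0.694. In another summary, spot signals were brought to the same 75th percentile with no background model, and the median of the spots replaced median polish. There miR-200a and miR-200b correlated at 0.183 and miR-200b and miR-429a at 0.318. Both lost the call (adjusted permutation p = 0.503 and 0.287), whereas miR-200a and miR-429a kept it at 0.744. The scaling was not the only change in this setting. With the scanner software's scaled total gene signals these pairs had, in the order just given, 0.856, 0.874 and 0.926. With RMA values that were not quantile normalized they had 0.920, 0.935 and 0.962. The latter keep differences in brightness between arrays, which all miRNAs of an array share.

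The exocrine and the miR-200 miRNAs ran against each other on the quantile normalized scale. The 9 pairs of 1 exocrine and 1 epithelial miRNA, which were added after the values were seen, had r from -0.840 (miR-216a with miR-200b) to -0.501 (miR-217 with miR-200a) and rho from -0.794 to -0.565, with adjusted permutation p for r of 0.0003 to 0.0479. They ranged from -0.859 to -0.409 within slide 1, from -0.834 to -0.418 within slide 2 and from -0.821 to -0.425 without the 2 farthest arrays, Fed/FLX 1 and Fasted/FLX 2. This opposition depended on the processing. Without quantile normalization, where differences in brightness between arrays remain, r lay between -0.333 and 0.0865. With scaled total gene signals it lay between -0.533 and -0.204, and with spot signals at a common 75th percentile between -0.655 and -0.182. The miRNA values of 1 array share its normalization, so these relations are given as a description.

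**Figure D4:**
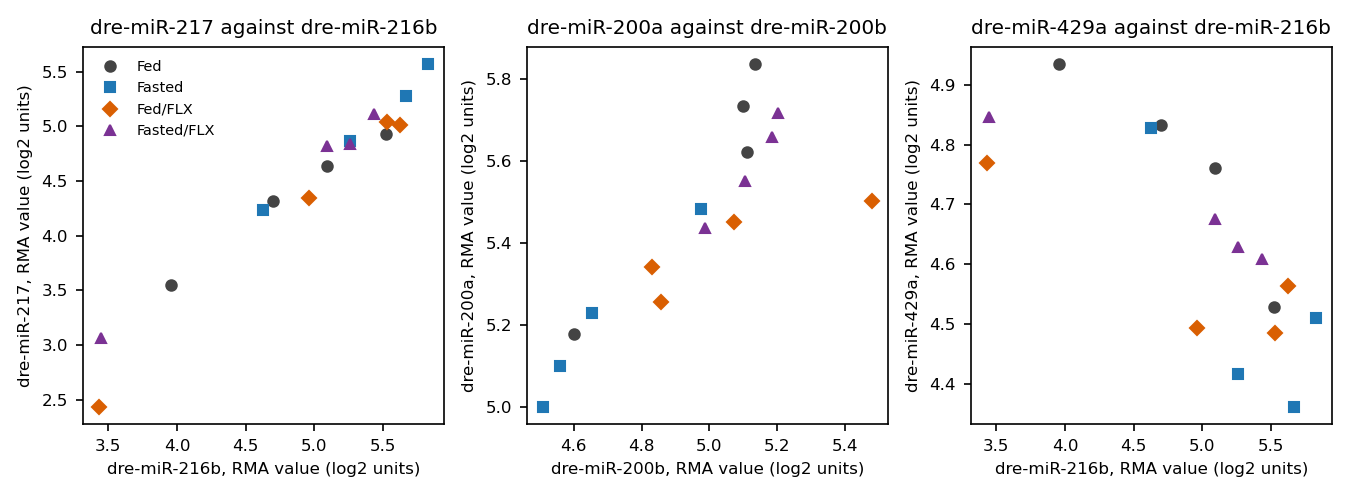
RMA values (log2 units, both axes) of dre-miR-217 against miR-216b, of miR-200a against miR-200b and of miR-429a against miR-216b, with 1 point per array and colours and symbols for the 4 groups. The first pair lies close to a line (r = 0.980), the second rises together (r = 0.840) with Fed/FLX 1 to the right, and the third falls (r = -0.765 on this scale, -0.122 without quantile normalization).

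The arrays low in the exocrine miRNAs were set beside the other marker lists. The 3 exocrine miRNAs summed to 51.15 units of scaled total gene signal on Fed/FLX 1 and 44.2 on Fasted/FLX 2, against 288.5 to 426.1 and 297.8 to 369.3 on the other arrays of the same groups. On Fed arrays the sum was 165.9 to 490.3 and on Fasted arrays 222.5 to 752.1. The summed red blood cell miRNAs (dre-miR-451 and miR-144) were 8290 on Fed/FLX 1 and 2147 to 4047 on the other Fed/FLX arrays, and 1958 on Fasted/FLX 2 beside 2102 to 3622 on the others of its group. On Fed 3, which had the lowest exocrine sum of its group (165.9), they were 1254. The 3 arrays low in exocrine miRNAs thus held the highest red blood cell sum of all 16 (Fed/FLX 1), the lowest of all 16 (Fed 3) and the lowest of its group (Fasted/FLX 2). Of the other lists, the white blood cell sum of these arrays was neither the lowest nor the highest of its group (541.9, 511.6 and 426.9 in this order). The endothelium sum was 1212, 1409 and 1011, of which the second was the highest and the third the lowest of its group. The epithelium list holds dre-miR-205 beside the 9 epithelial members, and its sum was 591.1, 1458 and 778.7. The latter 2 were the lowest of their groups. On these arrays dre-miR-205 had RMA values of 5.63, 7.94 and 6.86, above the 5.50, 5.74 and 5.66 of miR-200a, the highest member. This sum therefore does not describe the members alone. The liver miRNA stood at 17240, 19900 and 17980, of which the first was the lowest of its group. The part of blood or of pancreas carried with a liver in these differences was not tested.

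None of the islet markers was detected. dre-miR-375 lay between 1.11 and 2.14 on all 16 arrays, below the dimmest detected miRNA of every array, and dre-miR-7a and miR-7b, which are also expressed in islets, were detected on none. No fold is given for dre-miR-375, miR-203b-5p (1.87 to 2.22) or miR-429b (1.78 to 2.02), since all groups were below background.

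The miR-203 miRNAs were seen on a few arrays only. dre-miR-203b-3p had 4.85, 3.23, 2.77 and 2.998 in Fed, 2.43, 2.54, 3.18 and 2.87 in Fasted, 3.38, 3.50, 4.34 and 2.36 in Fed/FLX and 4.66, 2.44, 3.18 and 3.71 in Fasted/FLX. It was detected on Fed 1, Fed/FLX 3 and Fasted/FLX 1, with 93.0%, 73.2% and 100% of its spots above background, and on no Fasted array. The same 3 arrays held the 3 highest values of dre-miR-203a, 3.60, 3.22 and 3.31, although miR-203a was detected nowhere by the 50% rule. Both probes of dre-miR-203b-3p were above background on 3 arrays. The group means of dre-miR-203b-3p were 3.46 ± 0.94 (Fed), 2.75 ± 0.34 (Fasted), 3.40 ± 0.81 (Fed/FLX) and 3.50 ± 0.93 (Fasted/FLX). No fold is given for dre-miR-203b-3p, which was detected on 3 of 16 arrays and on none in Fasted.

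dre-miR-200c and miR-141 were near the limit of detection and were highest on Fed 1 and Fasted/FLX 1 as well. dre-miR-200c ranged from 3.44 to 4.59 and was detected on Fasted/FLX 1 alone, though the scanner software marked it as present on 13 arrays. dre-miR-141 ranged from 2.48 to 3.73 and was marked by the software on 1. No fold is given for either.

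**Figure D5:**
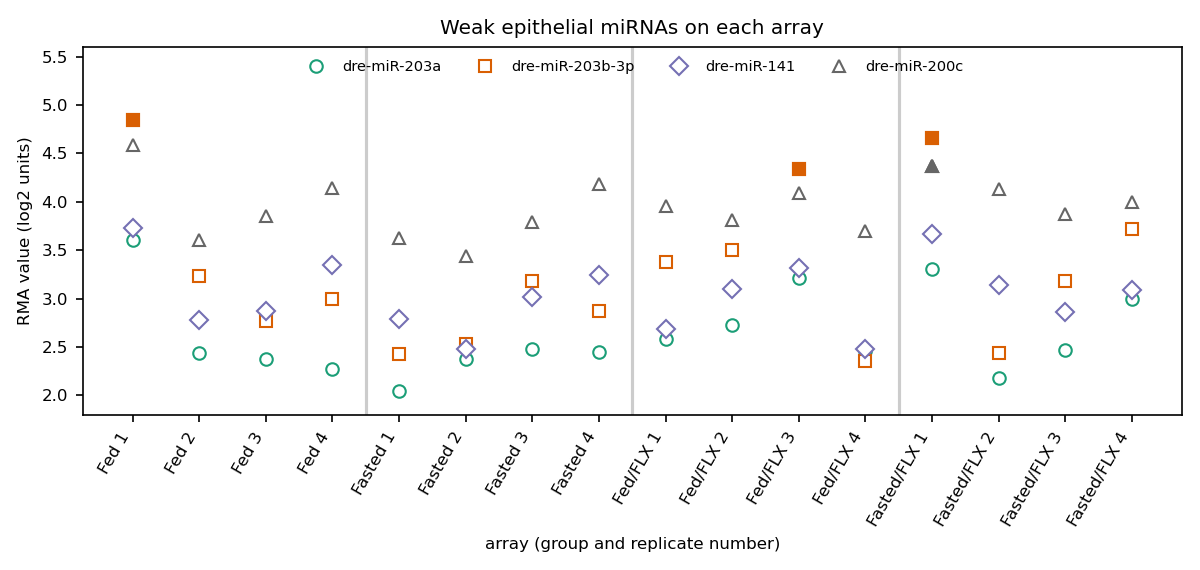
RMA values (log2 units, vertical axis) of dre-miR-203a, miR-203b-3p, miR-141 and miR-200c on the 16 arrays (horizontal axis, by group and replicate number). Filled symbols mark arrays on which the miRNA was detected, and miR-203b-3p is filled on Fed 1 (4.85), Fed/FLX 3 (4.34) and Fasted/FLX 1 (4.66).

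The ranges of the number of the 13 miRNAs detected on an array overlapped between all groups, whereas that of all 248 miRNAs was 83 to 92 in Fasted/FLX and 64 to 77 in Fed. Fed arrays had 5.0 ± 1.15 (SD, n = 4) with a range of 4 to 6, Fasted arrays 5.5 ± 0.577, Fed/FLX arrays 5.0 ± 1.41 and Fasted/FLX arrays 6.0 ± 1.63, of which 1 reached 8. By the two-sided exact permutation test, p against Fed was 0.657, 1 and 0.657 (0.986, 1 and 0.986 adjusted over 3 tests), and the smallest p this design allows is 0.0286.

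A list of 13 other miRNAs was taken as companions, not all of them particular to epithelia, gut or pancreas. dre-miR-205, a miRNA of stratified epithelium, was the one companion called at 2-fold, in Fed/FLX against Fed (log2 difference -1.74 ± 0.34, limma adjusted p = 0.00759). Its RMA values were 8.35, 8.51, 7.94 and 8.55 in Fed, 5.63, 7.21, 7.36 and 6.17 in Fed/FLX, 7.40, 8.01, 7.46 and 7.99 in Fasted and 7.95, 6.86, 7.20 and 7.02 in Fasted/FLX. The members of the miR-200 family had no such difference in Fed/FLX, where miR-200a differed from Fed by -0.21, miR-200b by 0.07 and miR-429a by -0.19. At an adjusted p under 0.05 with no minimum fold, dre-miR-130a was higher (0.35) and dre-miR-192 was lower (-0.49) in Fed/FLX than in Fed. dre-miR-130a was also higher in Fasted/FLX than in Fed (0.52), and dre-miR-194a was lower in Fed/FLX than in Fasted (-0.74). dre-miR-192 and miR-194a were detected on every array, with group means of 9.28 to 9.77 and 7.53 to 8.27. Whether their signal came from gut or liver tissue was not tested. Of the 13 companions 3 thus passed in Fed/FLX against Fed, where 12.9% of all miRNAs did, which is 1.68 in 13. In Fasted/FLX against Fed (4.84% of all) and in Fed/FLX against Fasted (7.26%) 1 passed, and in the remaining comparisons 0. The list was chosen with earlier results of these data known, so these counts are no result about it.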

How the data were processed

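Liver miRNA of 16 samples was measured on one-colour custom arrays, and the labels gave each group and replicate number. The authors deposited scanner output (the submitters' processing notes name Agilent Feature Extraction 11.0.1.1), with a background-subtracted intensity per spot, not normalized between arrays, and marks, given as 0 or 1, for being well above background or an outlier. A deposited table of the authors holds log2 values of 166 miRNAs, 3 of them members. Its columns were matched to scans: 14 of 16 matched the scan of another sample within 0.001, in 12 cases of another group, so that the table served by its headings only as an alternative. All its column headings name samples of the series, so that 0 columns were set aside. All groups here rest on the labels of the scans. Whether these or the headings of the table are right was not tested.

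RMA values came from limma 3.58.1 (R 4.3.3) in these steps: normexp background model (rma75) on the background-subtracted intensity (the mean signal of the planned input was absent), removal of control and outlier spots, quantile normalization of all 16 arrays, the log2 scale and median polish (up to 20 iterations). All 248 miRNAs were tested with lmFit and eBayes, 1 mean per group, with Benjamini-Hochberg adjustment within each of 7 comparisons. Relations used 100000 permutations, and single values exact permutation (Python 3.11.15, numpy 2.4.6, scipy 1.17.1, pandas 2.3.3, matplotlib 3.10.9). Scripts were tested on simulated data. The number of arrays limits the precision, as arrays have no read counts.

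The rule for naming was values on every array for members detected on at least 8 arrays, ranges and counts for the rest, and, of the companion list, dre-miR-205 and those past an adjusted p of 0.05. The miR-203 miRNAs, miR-200c and miR-141 are described beyond this rule because of their values. The members and lists were chosen with earlier results of these data known. Replicate numbers were taken to pair Fed and Fasted, where the correlations of deviations from group means were 0.193, 0.265, 0.204 and 0.113 and arrays of a number share a slide and a slide column. Elsewhere at most 2 of 4 such correlations exceeded 0.1, and numbers were not taken as pairs. No sequence of a miRNA was in the sources used here, and coordinates are not printed since the RefSeq table is of another build than the array design.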

Additional observations from a re-analysis of the deposited data

Results flagged for a closer look

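In 4 of the 52 groups of 4 arrays (13 miRNAs in 4 groups) 1 array lay far from the other 3 by Dixon's criterion, where chance alone gives about 1 in 20 groups, or 2.6. The lowest Fed array for dre-miR-200b was Fed 2 (4.60). The highest Fed array for dre-miR-203a was Fed 1 (3.60), and the same array was the highest for dre-miR-375 (2.14). The lowest Fasted/FLX array for dre-miR-217 was Fasted/FLX 2 (3.06). On each of these arrays the miRNA concerned was not detected.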

How the results depend on the processing

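Under 32 settings in all, 0 of 2754 values of the members were called at 2-fold, the methods' test included, and of the 1284 alternative values of the 6 miRNAs detected on at least 8 arrays 1227 kept their direction and stayed uncalled while 57, none of them called, changed sign. With the replicate block 0 members were called in each of the 7 comparisons, and it changed no call. The 10 values past an adjusted p of 0.05 were the 4 given above for dre-miR-200a without Fed 2 and for miR-200b with 2 groups in the fit, and 6 from the authors' table by its headings, where dre-miR-203b-5p, miR-375 and miR-429b, all undetected, each had -0.54 in Fasted against Fed (limma adjusted p = 0.0152) and 0.82 in the interaction (0.00922). These 3 share their values since the table holds them at 1 floor value less a constant per column. The difference in members detected per array from Fed was -0.25 (Fasted) and -0.5 (Fed/FLX) by the scanner software's mark, 0.0 (Fasted) at 25% of spots and -0.5 (Fed/FLX) at 75%. Leaving out each array gave 0.167 to 0.833 for Fasted, -0.333 to 0.667 for Fed/FLX and 0.333 to 1.67 for Fasted/FLX. At a common 75th percentile of spot signals the relation of miR-200a with miR-200b was 0.183 and of miR-200b with miR-429a 0.318. That setting also left out the background model and took the median of the spots. Without quantile normalization the relations of miR-200a with miR-216b (0.0071) and with miR-217 (0.0865) turned positive. The cause of these changes was not tested. Without quantile normalization the median of all miRNAs shifted by up to 0.25 log2 units. Relations of miR-141 with miR-200c, miR-217 with miR-375 and miR-203a with miR-200b or miR-203b were not run, as at least 1 of each pair was detected on fewer than 8 arrays.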
